A study of Homo sapiens with 18 samples.

Results

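The pre-B-cell receptor (pre-BCR) and its first signalling steps were followed through 9 genes: *CD79A*, *CD79B*, *VPREB1*, *VPREB3*, *IGLL1*, *BLNK*, *SYK*, *BTK* and *PLCG2*. They were chosen by symbol among the 26941 genes of the count tables, and each was read from the RefSeq transcript of that gene with the most counts in all samples together. RNA was sequenced from 3 established B-cell acute lymphoblastic leukemia (B-ALL) cell lines. REH carries the *ETV6-RUNX1* fusion. In each line 3 samples had received *SOX11* siRNA and 3 had received non-specific control siRNA, both at 300 nM by nucleofection, and RNA was harvested after 48 h. All samples of a line therefore share its genetic background and the transfection itself. The sample titles call the treated group a knockout, while the treatment is an siRNA, which lowers an mRNA without changing the gene. Each line stands for itself, and line and leukemia subtype cannot be told apart.

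The pre-BCR marks the checkpoint at which a developing B cell has made an immunoglobulin heavy chain but no light chain. The products of *VPREB1* and *IGLL1* (lambda 5) form a surrogate light chain that pairs with the heavy chain, and CD79A and CD79B (Ig alpha and Ig beta) carry the signal into the cell. There the kinases SYK and BTK, the adaptor BLNK and the phospholipase PLCG2 pass it on, and SOX11 is a neuronal transcription factor that healthy B cells do not normally use.

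Sequencing depth was 7039594 to 16592492 counts per sample (median 8759235), so 3 counts correspond to 0.181 to 0.426 CPM, which are counts scaled to the size of the library. Apart from *VPREB1* in REH, each member had at least 545 counts summed over the 3 samples of any group. Of 9 B-lineage markers, 9 reached a mean of 1 CPM in REH and 8 in each of the other lines, where *CD37* was at 0 in all 697 samples and at 0.644 CPM in RCH-ACV controls. *CD3D* and *CD4* of T cells, *ELANE* of myeloid cells and *HBA1* and *HBB* of erythroid cells were at 0 in all 18 samples. Other markers of these lists were counted in controls. They include *CSF1R* at 28.3 CPM in RCH-ACV, *NKG7* at 14.2 in 697 and 7.91 in RCH-ACV, and *MPO* at 13.5 in REH. *SOX11* mRNA was lower in every sample with *SOX11* siRNA than in any control of the same line, at 47.7 to 61.4 CPM against 93.1 to 98.7 in REH, 30.9 to 32.6 against 59.3 to 59.8 in 697 and 78.8 to 86.8 against 124 to 136 in RCH-ACV. The fitted fall was 43.7%, 47.0% and 37.3% in that order. In 3 groups a single sample stood apart, by the chi-square per degree of freedom of its counts against the other samples of its group. RCH-ACV *SOX11* siRNA replicate 3 was at 3.47 and 4.49 (1.33 for the other pair), 697 control replicate 1 at 4.30 and 5.18 (1.81) and 697 *SOX11* siRNA replicate 3 at 3.57 and 4.73 (1.61). Without the first, 2518 genes passed the test in RCH-ACV in place of 991. In 697 71 genes passed without the second and 47 without the third, in place of 68.

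The genes lie on 7 chromosomes in hg19, and the 3 VPREB and IGLL genes lie close together. *VPREB1* is at chr22:22599192-22599927 (+ strand), *IGLL1* at chr22:23915312-23922489 (- strand) and *VPREB3* at chr22:24094930-24096612 (- strand). *VPREB1* lies within the immunoglobulin lambda locus. *CD79A* is at chr19:42381349-42385439 (+ strand), *CD79B* at chr17:62006098-62009696 (- strand), *BLNK* at chr10:97948927-98031344 (- strand), *SYK* at chr9:93564069-93660831 (+ strand), *BTK* at chrX:100604326-100645784 (- strand) and *PLCG2* at chr16:81812884-81996290 (+ strand). The values are exonic counts. *BLNK* shares 117 exonic bases with *ZNF518A* on the opposite strand (53.7 CPM on average) and 854 with the pseudogene *NPM1P25* on the same strand. *PLCG2* shares 339 with a long non-coding RNA and *CD79B* 119 with a protein-coding gene, both on the same strand. *IGLL1* shares 43 with a long non-coding RNA on the opposite strand. Whether the counting used strand is not given in the sources used here, so *BLNK* and *IGLL1* counts may hold reads of the opposite-strand neighbours. A strand setting would not separate same-strand neighbours, so *BLNK*, *PLCG2* and *CD79B* counts may hold reads of those.

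The promoters of the 4 genes that the results turn on are printed because the 3 VPREB and IGLL genes differed in level between lines and *CD79A* was the member called in more than 1 line. Each shows the 250 bases upstream of the RefSeq start in GRCh38.p14, 5′ to 3′ on the strand of the gene. Capitals mark matches on either strand to CCCNNGGG (the core bound by EBF factors), CAGNTG (an E-box, bound by helix-loop-helix factors), ATTTGCAT (the octamer bound by POU factors), and ACAAAG or ACAATG (cores bound by SOX factors). *VPREB1* is at chr22:22244536-22244785 (+ strand), *IGLL1* at chr22:23580291-23580540 (- strand), *VPREB3* at chr22:23754426-23754675 (- strand) and *CD79A* at chr19:41877029-41877278 (+ strand).
VPREB1: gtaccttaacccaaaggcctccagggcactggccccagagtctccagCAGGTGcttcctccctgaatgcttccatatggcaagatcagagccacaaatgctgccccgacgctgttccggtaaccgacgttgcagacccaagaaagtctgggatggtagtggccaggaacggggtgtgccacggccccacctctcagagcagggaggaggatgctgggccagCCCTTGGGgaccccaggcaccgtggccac
IGLL1: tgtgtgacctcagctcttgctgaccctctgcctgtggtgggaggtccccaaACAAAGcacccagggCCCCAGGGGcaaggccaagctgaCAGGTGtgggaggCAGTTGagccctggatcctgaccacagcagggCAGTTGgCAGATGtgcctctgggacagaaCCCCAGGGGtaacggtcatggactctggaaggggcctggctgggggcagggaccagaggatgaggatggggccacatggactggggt
VPREB3: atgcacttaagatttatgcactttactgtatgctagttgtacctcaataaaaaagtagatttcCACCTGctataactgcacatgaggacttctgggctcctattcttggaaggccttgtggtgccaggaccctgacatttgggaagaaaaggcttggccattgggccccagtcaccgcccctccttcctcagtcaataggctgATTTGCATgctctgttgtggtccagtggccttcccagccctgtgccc
CD79A: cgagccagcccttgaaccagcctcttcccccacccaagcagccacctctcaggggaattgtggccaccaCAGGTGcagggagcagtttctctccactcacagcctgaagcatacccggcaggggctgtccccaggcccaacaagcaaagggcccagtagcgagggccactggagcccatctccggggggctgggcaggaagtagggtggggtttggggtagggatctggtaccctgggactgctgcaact

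These letters were chosen after the sequences had been seen, and a match is a description and not a binding site. The *IGLL1* promoter held the most matches (9). Its CCCCAGGGG stretches, which start 184 and 87 bases before the start, each contain CCCNNGGG in overlapping frames and so count more than once. The *IGLL1* window also held CAGNTG 4 times and the only SOX core of these 4 windows, ACAAAG at 199 bases before the start. *VPREB3* held the octamer 47 bases before its start and *VPREB1* held CCCNNGGG 29 bases before its start. The *CD79A* window held a single CAGNTG. Of 35116 RefSeq promoter windows of the same length, 17.1% held CCCNNGGG, 42.5% CAGNTG, 1.63% the octamer, 13.7% ACAAAG and 9.29% ACAATG. Promoters were matched for 8 of the 9 members (11 windows). Of these 11 windows, 3 held CCCNNGGG, 9 CAGNTG, 1 the octamer, 2 ACAAAG and 0 ACAATG. The other window with ACAAAG was that of *BLNK*, which is not printed, at 91 bases before its start.

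With control siRNA the 3 lines carried the pre-BCR genes at different levels. REH had the signal-carrying chains and the kinases at high levels and almost no *VPREB1* mRNA, 697 had the highest surrogate light chain levels and low *CD79B*, *BTK* and *PLCG2*, and RCH-ACV had the highest *BTK* and the lowest *CD79A*. All 9 members passed the test in each pair of lines, but so did most genes, because 76.3% of 13686 tested genes were called between 697 and REH (37% higher and 39.4% lower in 697), 73.9% between RCH-ACV and REH (37.7% higher and 36.2% lower in RCH-ACV) and 64.2% between RCH-ACV and 697 (33.3% higher and 30.9% lower in RCH-ACV). In 697 against REH 4 members were higher and 5 lower, in RCH-ACV against REH 2 were higher and 7 lower, and in RCH-ACV against 697 4 were higher and 5 lower. The 3 comparisons share control samples and are not independent of each other. In bulk RNA, fewer cells with a transcript and less of it per cell cannot be told apart.

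*VPREB1*, the part of the surrogate light chain that resembles a variable domain, set REH apart. REH controls held 1, 0 and 0 counts, and the REH samples with *SOX11* siRNA held the same, 1, 0 and 0. Both counts lie under the floor of 3 counts per sample. In controls this is 0.0335 CPM (exact Poisson 95% interval 0.000848 to 0.187, counting error only). The 697 controls held 212, 211 and 222 CPM and the RCH-ACV controls 176, 181 and 182 CPM, so the groups of the lines were far apart. The ratio of 697 to REH was 6121 (95% counting interval 1098 to 241798) and of RCH-ACV to REH 5359 (961 to 211698). Between 697 and RCH-ACV, the level in RCH-ACV was 1.19-fold lower (log2 difference -0.25, SE 0.05, adjusted p = 0.000183).

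*IGLL1*, which encodes the constant-like part of the surrogate light chain, was detected in all 3 lines. Its control level was 234 ± 15.8 CPM in REH, 346 ± 34.5 in 697 and 206 ± 13.5 in RCH-ACV (SD, n = 3). It was 1.48-fold higher in 697 than in REH (adjusted p = 3.99e-07) and 1.67-fold lower in RCH-ACV than in 697 (adjusted p = 2.68e-08). RCH-ACV and REH were close, with control samples of 193 to 220 CPM against 216 to 246 CPM, which overlap. That difference of -0.17 on the log2 scale passed the test (adjusted p = 0.0324) but not in 4 of the 6 fits that left out a sample, which were those without REH control replicate 2 (adjusted p = 0.130) or 3 (0.1001) or RCH-ACV control replicate 1 (0.0795) or 2 (0.152). *VPREB3*, whose product binds nascent immunoglobulin chains inside the cell, followed the order 697, REH, RCH-ACV at 195 ± 11.6, 132 ± 5.03 and 67.1 ± 3.83 CPM, with no overlap between the lines. It was 1.48-fold higher in 697 than in REH (adjusted p = 2.62e-08) and 1.95-fold lower in RCH-ACV than in REH (adjusted p = 7.59e-11).

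The genes of chromosome 22 around *VPREB1* and *IGLL1* put the REH value in context. They were picked by position, from *PPM1F* to *MMP11*, after the *VPREB1* value was known, and are given as levels with no test. Just before *VPREB1*, *TOP3B* and *PPM1F* were counted at 31.3 and 81.7 CPM in REH, near their values in 697 (37.2 and 70.8) and RCH-ACV (38.7 and 79.7). Further along, *IGLL5*, a relative of *IGLL1* within the lambda locus, had 0 counts in the 3 REH controls, 983 in 697 and 1082 in RCH-ACV. *BCR*, between *IGLL5* and *IGLL1*, was at 152 CPM in REH, 79.8 in 697 and 153 in RCH-ACV. *VPREB1* and *IGLL5* were thus at or near 0 in REH, while *ZNF280B* (13.2 CPM) and *PRAME* (4.88 CPM), which lie between them, were counted there. *IGLL1* and *IGLL5* share sequence, and reads aligned to more than 2 places had been discarded by the authors, so both counts may miss reads. REH controls had 7285 counts of *IGLL1* and 0 of *IGLL5*. The cause of the low values in REH was not tested.

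**Figure D1:**
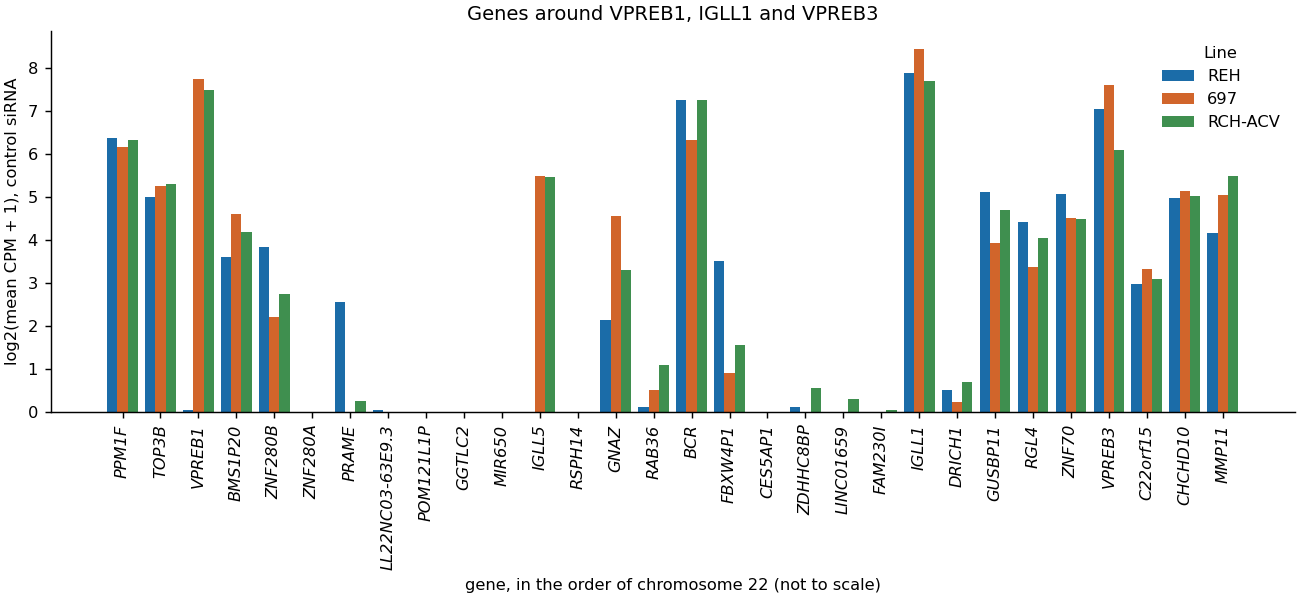
Level of the 30 genes of chromosome 22 from *PPM1F* to *MMP11* with control siRNA, as log2(mean CPM + 1) on the vertical axis, with genes in chromosome order on the horizontal axis and a bar for each line (mean of 3 samples). The REH bar is near 0 at *VPREB1* and at 0 at *IGLL5*, while *PPM1F*, *TOP3B*, *BCR*, *IGLL1* and *VPREB3* have bars in all 3 lines.

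The signal-carrying chains had their highest level in REH. *CD79A* was at 721 ± 24.4 CPM in REH, 273 ± 14.4 in 697 and 128 ± 5.46 in RCH-ACV, so it was 2.62-fold lower in 697 and 5.57-fold lower in RCH-ACV than in REH (adjusted p = 5.94e-15 and 4.52e-18). *CD79B* was at 426 ± 2.44, 73.4 ± 3.24 and 96.3 ± 7.04 CPM in the same order, 5.78-fold lower in 697 and 4.38-fold lower in RCH-ACV than in REH (adjusted p = 8.48e-18 and 6.37e-17). The 2 chains did not rank the lines alike, since RCH-ACV was the lowest for *CD79A* and 697 was the lowest for *CD79B*, where RCH-ACV exceeded 697 by 1.32-fold (adjusted p = 1.34e-05).

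Of the members counted in all 3 lines, *BTK* and *PLCG2* spanned the widest range between lines. *BTK*, the kinase that activates PLCG2, was at 184 ± 6.38 CPM in REH, 24.5 ± 1.65 in 697 and 256 ± 6.29 in RCH-ACV. It was 10.5-fold higher in RCH-ACV than in 697 (adjusted p = 3.86e-18) and 7.49-fold lower in 697 than in REH (adjusted p = 9.81e-18). *PLCG2*, which makes the second messengers that release calcium and activate protein kinase C, was at 385 ± 2.84, 41.6 ± 4.48 and 73.8 ± 3.10 CPM, 9.19-fold lower in 697 and 5.18-fold lower in RCH-ACV than in REH (adjusted p = 1.88e-18 and 3.69e-17). *SYK*, the kinase recruited to phosphorylated CD79 chains, was at 368 ± 8.48, 97.6 ± 7.09 and 142 ± 4.81 CPM, again highest in REH (3.74-fold and 2.57-fold above 697 and RCH-ACV). *BLNK*, the adaptor that brings BTK and PLCG2 together, differed least among the signalling members, by 1.66-fold at most. It was at 154 ± 8.08 CPM in REH, 221 ± 8.22 in 697 and 134 ± 6.64 in RCH-ACV, 1.45-fold higher in 697 than in REH (adjusted p = 3.52e-08) and 1.15-fold lower in RCH-ACV than in REH (adjusted p = 0.00335).

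Between genes, levels were set per kilobase of the canonical transcript (567 bases for *VPREB3* to 8666 for *PLCG2*), a stand-in for the transcript that was counted. In REH the order was *CD79A* (656 CPM per kilobase), *CD79B* (342), *IGLL1* (266), *VPREB3* (233), *SYK* (74.0), *BTK* (71.5), *PLCG2* (44.5) and *BLNK* (35.5), with only *SYK* and *BTK* overlapping. In 697 the VPREB and IGLL genes came first, *IGLL1* (392), *VPREB3* (345) and *VPREB1* (334), neighbours that overlapped, and *BTK* (9.50) and *PLCG2* came last. In RCH-ACV *VPREB1* (279) and *IGLL1* (234) led, *VPREB3* (118) overlapped *CD79A* (117), *BTK* followed at 99.5, *BLNK* (30.7) overlapped *SYK* (28.6), and *PLCG2* was last (8.51). Per kilobase, *CD79A* was thus the highest member in REH, and a surrogate light chain gene was the highest in 697 and in RCH-ACV.

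**Figure D2:**
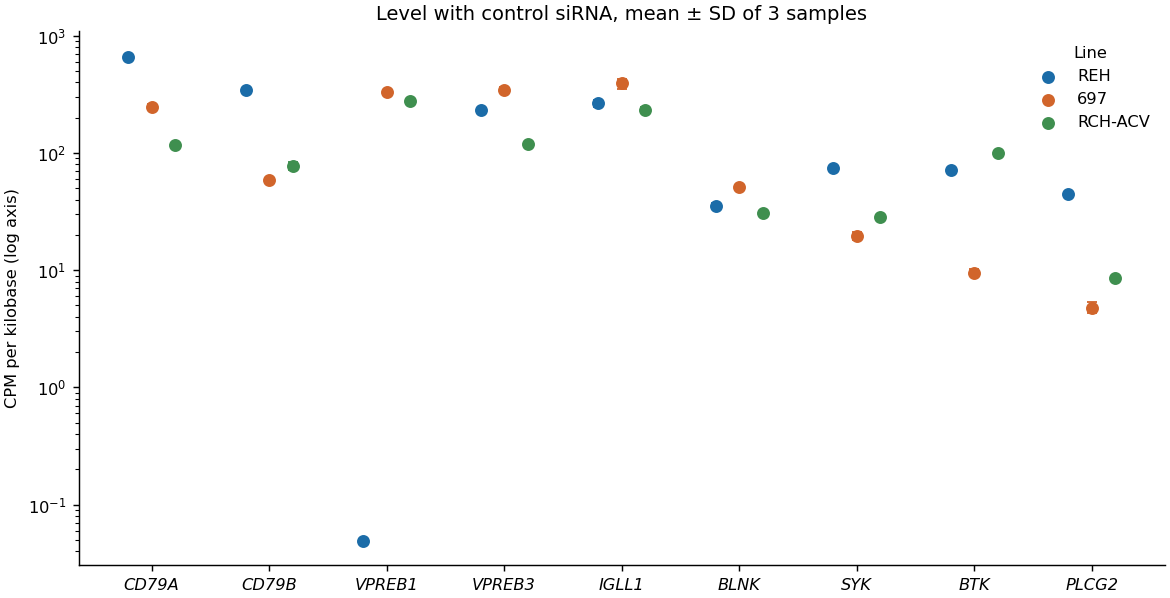
Control siRNA level of the 9 genes in CPM per kilobase (log axis) on the vertical axis, for each gene on the horizontal axis and each line by colour. Points are means of 3 samples and bars are SD, where no bar shows for *VPREB1* in REH because it would reach below 0. *VPREB1* in REH lies at 0.0492 on 1 count, far below all other points, and *BTK* and *PLCG2* are lowest in 697.

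*SOX11* siRNA changed few members in any line. In REH 2 of the 8 tested members were called, both higher (*CD79A* and *PLCG2*), where 4.65% of 12787 tested genes were called (2.64% higher and 2.02% lower). In 697 1 of 9 was called, *VPREB3*, which was lower, where 0.559% of 12169 genes were called (0.0822% higher and 0.477% lower). In RCH-ACV 1 of 9 was called, *CD79A*, which was higher, where 7.64% of 12963 genes were called (3.68% higher and 3.97% lower). *VPREB1* was not tested in REH. Members with an unadjusted p under 0.05 numbered 3 (REH), 4 (697) and 3 (RCH-ACV). How many of all tested genes reached that level is not given here, so these counts cannot be judged against a background. Over the tested members the median log2 fold change came to 0.059 (REH), -0.090 (697) and 0.0025 (RCH-ACV), against -0.0023, -0.0035 and 0.0051 over all tested genes. The samples with *SOX11* siRNA and the controls did not overlap for 4 of 8 members in REH. In 697 they did not overlap for 6 of 9, and in RCH-ACV for 2 of 9, against 21.4%, 13.1% and 25.9% of all tested genes.

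**Figure D3:**
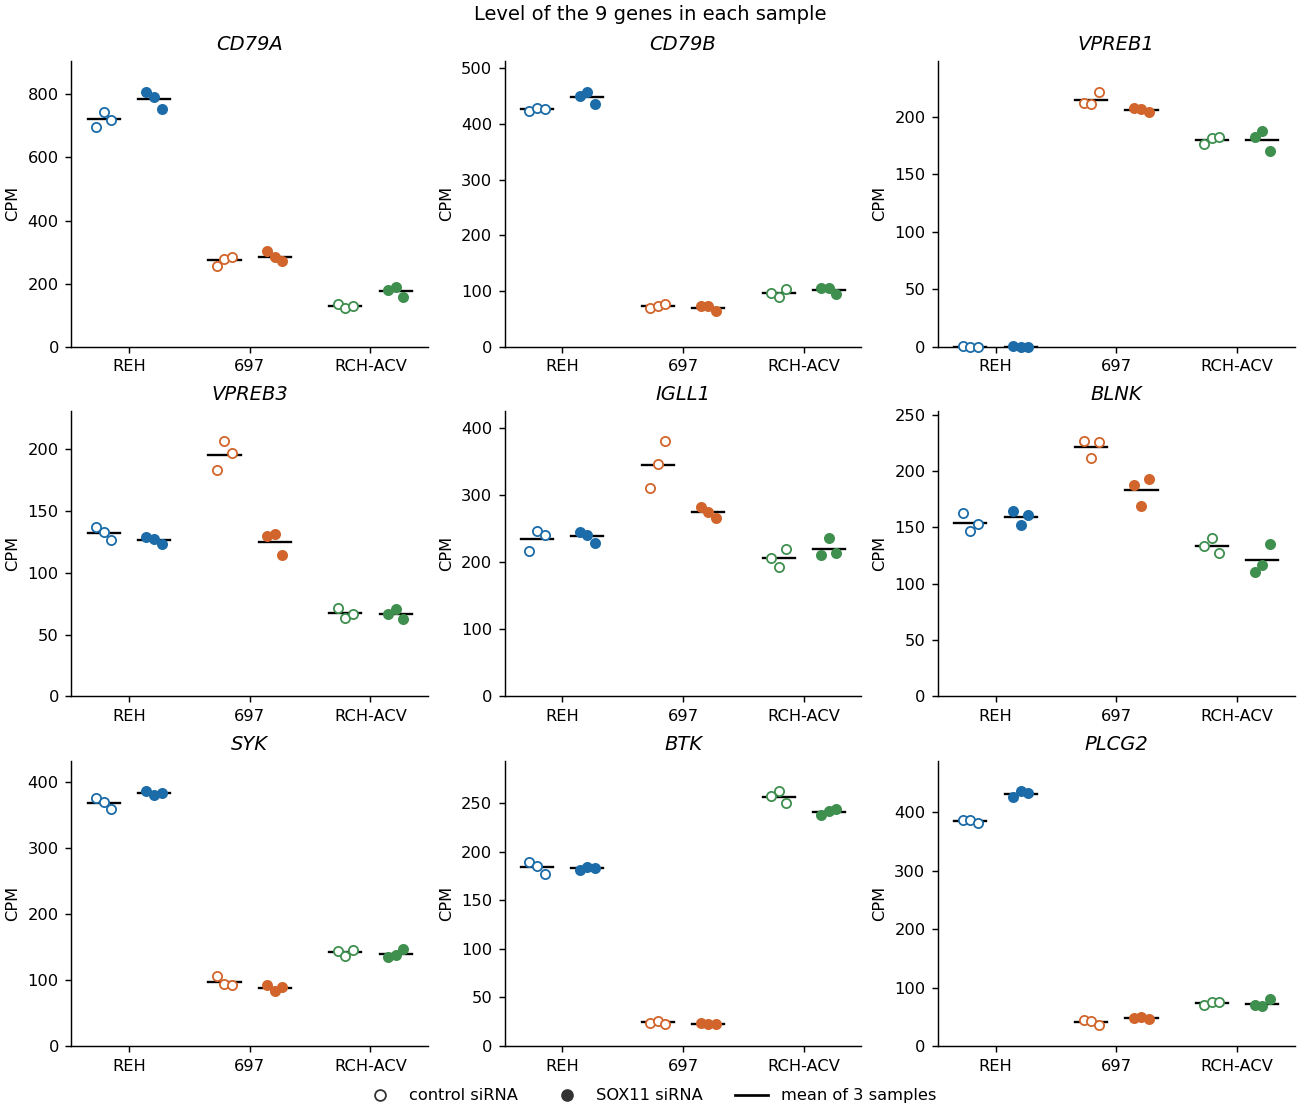
Level of each of the 9 genes in all 18 samples in CPM (vertical axes from 0), by line on the horizontal axis, with open circles for control siRNA, filled circles for *SOX11* siRNA and a bar at the mean of 3 samples. *VPREB3* in 697 falls from 183 to 206 CPM in controls to 115 to 132 CPM, and *CD79A* in RCH-ACV rises from 123 to 134 CPM to 159 to 190 CPM.

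*VPREB3* fell with *SOX11* siRNA in 697. The controls were at 183, 206 and 197 CPM and the treated samples at 130, 132 and 115 CPM, so all treated samples lay below all controls. The log2 fold change was -0.64 (SE 0.07, 95% interval -0.81 to -0.48), a fall of 36.0% (adjusted p = 0.00241 by the quasi-likelihood test of edgeR, Benjamini-Hochberg over all tested genes). It was called in all 6 fits that left out a sample and in all 10 other alternatives, and was -0.69 without control replicate 1 and -0.58 without *SOX11* siRNA replicate 3, the samples that stood apart. In REH the controls were at 137, 133 and 127 CPM and the treated samples at 129, 128 and 123 CPM, which overlap (log2 fold change -0.06, adjusted p = 0.528), and in RCH-ACV the controls at 71.3, 63.8 and 66.3 CPM overlapped the treated samples at 67.1, 71.1 and 63.0 CPM (0.01, adjusted p = 0.973). The difference between lines was itself called (adjusted p = 0.000159).

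*IGLL1* in 697 was at 311, 346 and 380 CPM in controls and 283, 275 and 266 CPM in treated samples, which did not overlap. Its log2 fold change of -0.34 (SE 0.07, 95% interval -0.50 to -0.17) did not pass the test (adjusted p = 0.104). Without 697 control replicate 1, the control nearest to the treated samples, it was -0.41 and passed (adjusted p = 0.00334), while without *SOX11* siRNA replicate 3 it was -0.31 and did not (adjusted p = 0.221). It also passed with DESeq2 (adjusted p = 0.00942) and in 1 fit over the 18 samples (adjusted p = 0.00368). In REH the log2 fold change was 0.03 (adjusted p = 0.801) and in RCH-ACV 0.10 (adjusted p = 0.299), with overlap in both. The difference between lines was called (adjusted p = 0.0255), where 0.727% of 14026 genes had such a difference, but not with the replicate number as a block (adjusted p = 0.177) or without 697 *SOX11* siRNA replicate 3 (adjusted p = 0.0537). Of the surrogate light chain itself, *VPREB1* had 212, 211 and 222 CPM in 697 controls and 207, 207 and 204 CPM in treated samples, a log2 fold change of -0.06 (95% interval -0.17 to 0.05, adjusted p = 0.849), so an effect on *VPREB1* of the size seen for *VPREB3* lay outside the interval. In RCH-ACV it was 0.00 (95% interval -0.10 to 0.10, adjusted p = 0.982).

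*CD79A* rose with *SOX11* siRNA in RCH-ACV. Controls were at 134, 123 and 127 CPM and treated samples at 179, 190 and 159 CPM, without overlap. The log2 fold change was 0.46 (SE 0.06, 95% interval 0.33 to 0.59), 37.5% above the controls (adjusted p = 0.000255), and 0.53 without *SOX11* siRNA replicate 3 (adjusted p = 5.88e-10). It was called in every alternative run. In REH *CD79A* was at 697, 746 and 719 CPM in controls and 809, 793 and 755 CPM in treated samples, also without overlap. That change was small, 0.13 on the log2 scale (SE 0.03, 9.36%, adjusted p = 0.0253), and was lost in 4 of 6 fits that left out a sample, namely without *SOX11* siRNA replicate 1 (adjusted p = 0.181) or 2 (0.107) or control replicate 1 (0.107) or 3 (0.112). In 697 the groups overlapped at 257 to 284 CPM and 272 to 302 CPM (log2 fold change 0.06, adjusted p = 0.908). The difference between lines was called (adjusted p = 0.0258, or 0.00159 without RCH-ACV *SOX11* siRNA replicate 3), but not with the replicate number as a block (adjusted p = 0.147).

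*CD79B* did not pass in any line. Its log2 fold change was 0.08 in REH (95% interval 0.01 to 0.14, adjusted p = 0.230), where controls at 424 to 429 CPM lay below treated samples at 436 to 458 CPM. It was -0.07 in 697 (adjusted p = 0.921) and 0.08 in RCH-ACV (95% interval -0.05 to 0.21, adjusted p = 0.491). The *CD79A* value in RCH-ACV lay above that interval, so in RCH-ACV the 2 chains of the receptor did not have the same estimated change, although the difference between genes was not tested.

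*PLCG2* rose in REH. Controls were at 387, 388 and 382 CPM and treated samples at 426, 436 and 433 CPM, so the groups did not overlap. The log2 fold change was 0.17 (SE 0.03, 12.4%, adjusted p = 0.00201), called in all 6 fits that left out a sample and in 9 of 10 other alternatives. The exception was 1 fit over the 18 samples, which shares the spread with the other lines (adjusted p = 0.102). In 697 controls at 44.8, 43.5 and 36.5 CPM lay below treated samples at 48.5, 49.9 and 46.1 CPM, and the log2 fold change of 0.21 (SE 0.09) did not pass (adjusted p = 0.562). In RCH-ACV it was -0.03 (adjusted p = 0.857). The difference between lines did not pass (adjusted p = 0.462).

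The adaptor and the kinases did not pass in any line. *BLNK* in 697 was at 226, 212 and 226 CPM in controls and 188, 169 and 193 CPM in treated samples, without overlap, with a log2 fold change of -0.28 (SE 0.06, 95% interval -0.40 to -0.15, adjusted p = 0.0834) that passed with DESeq2 (adjusted p = 0.0452) and in 1 fit over the 18 samples (adjusted p = 0.0224). Without 697 control replicate 1 or *SOX11* siRNA replicate 3 it did not pass (-0.26 and -0.31, adjusted p = 0.114 and 0.0879). In RCH-ACV it was -0.15 (adjusted p = 0.191), and -0.22 without *SOX11* siRNA replicate 3, where it was called (adjusted p = 0.00125). In REH it was 0.05 (adjusted p = 0.602). *SYK* lay between -0.15 (697) and 0.06 (REH), with adjusted p of 0.341 to 0.834. Its treated samples lay above the controls in REH (380 to 386 against 358 to 375 CPM) and below them in 697 (83.7 to 92.1 against 92.4 to 106 CPM), without overlap. *BTK* lay between -0.09 (697 and RCH-ACV) and -0.01 (REH), with adjusted p of 0.208 to 0.961, and its control and treated samples did not overlap in RCH-ACV, at 250 to 262 and 237 to 243 CPM.

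**Figure D4:**
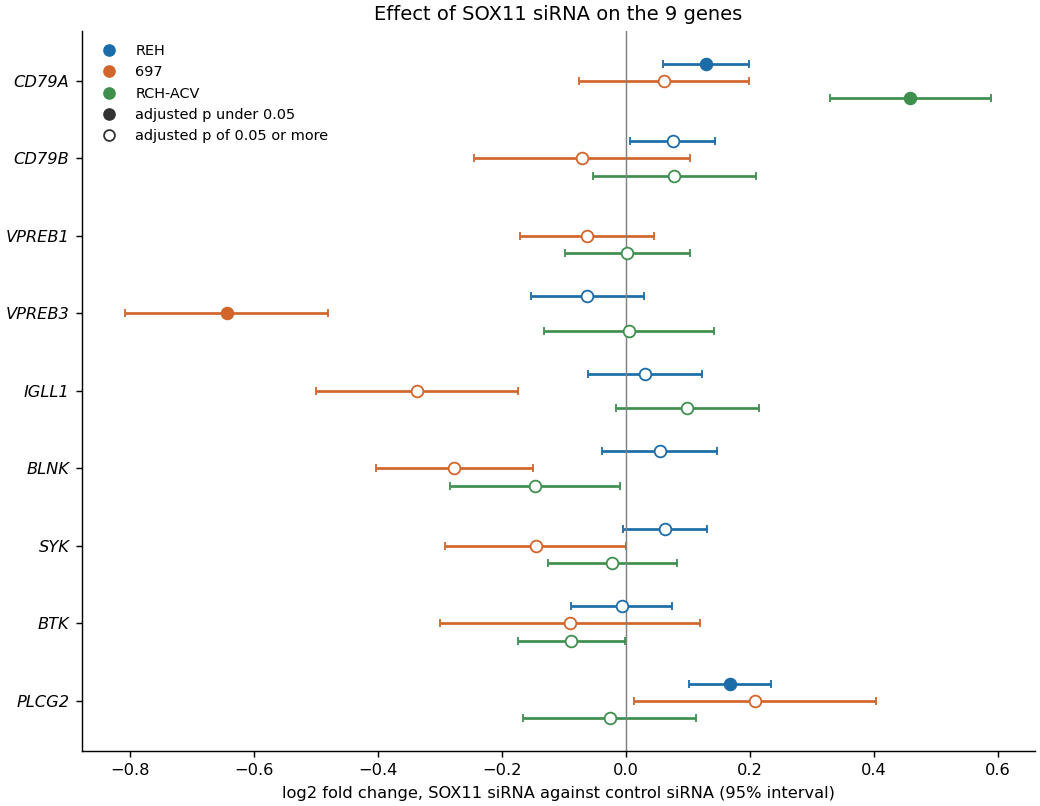
Log2 fold change of *SOX11* siRNA against control siRNA on the horizontal axis, for each of the 9 genes on the vertical axis and each line by colour, with 95% intervals from the edgeR fit (3 against 3 samples). Filled points passed the test, which are *CD79A* in REH (0.13) and RCH-ACV (0.46), *VPREB3* in 697 (-0.64) and *PLCG2* in REH (0.17). *VPREB1* in REH was not tested and has no point.

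Some non-B-lineage markers moved with the siRNA too. The summed level of 7 myeloid markers in REH was 15.1 to 17.0 CPM in controls and 9.49 to 11.0 CPM in treated samples, mostly from *MPO* (13.5 and 7.90 CPM), with *CD33* and *ELANE* at 0. The 9 B-lineage markers summed to 6826 to 6944 CPM in REH controls and 7419 to 7622 CPM in treated samples, and to 4762 to 5201 CPM and 4097 to 4406 CPM in 697, so the direction differed between these lines. In RCH-ACV they overlapped, at 5834 to 6057 CPM and 4678 to 5851 CPM. The 7 T and NK cell markers summed to 0.938 to 1.52 CPM in REH controls and 0.672 to 1.19 CPM in treated samples. In 697 they summed to 13.1 to 15.8 and 12.9 to 13.5 CPM and in RCH-ACV to 7.40 to 8.50 and 5.56 to 6.57 CPM, mostly from *NKG7*. The summed 5 markers of mature B and plasma cells overlapped between the groups in each line and stayed under 80 CPM. Single markers of that list changed in RCH-ACV, and not all in the same direction by their estimates. *MS4A1* was higher there (9.73 and 19.4 CPM, log2 fold change 1.01, adjusted p = 0.00339), as was *CD27* (1.24 and 2.80 CPM, 1.19, adjusted p = 0.00828). *SDC1*, the most abundant of the list, was at 47.6 and 46.9 CPM (adjusted p = 0.905). *PRDM1* was at 1.54 and 0.951 CPM (-0.80) and did not pass (adjusted p = 0.237), and *FCER2* was at 0 in both groups. The 5 erythroid and megakaryocytic markers stayed under 4 CPM, with the groups apart in RCH-ACV only (2.05 to 2.34 and 2.39 to 3.16 CPM). The part of these markers in the results was not tested.

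Over the wider pathway, 65 genes on 4 lists were read from the same fits. In REH 13 of 60 tested genes were called (12 higher, 1 lower), in 697 3 of 58 (1 higher, 2 lower) and in RCH-ACV 16 of 59 (12 higher, 4 lower), beside the 4.65%, 0.559% and 7.64% of all tested genes. Without RCH-ACV *SOX11* siRNA replicate 3, 27 of 59 were called in RCH-ACV (17 higher, 10 lower). Over all genes that fit called 2518 in place of 991, and the counts below for single lists without this sample stand beside the same rise. With any other sample of RCH-ACV left out 8 to 12 of 59 were called, beside 386 to 536 over all genes. In REH 7 to 14 were called with a sample left out, beside 299 to 521 over all genes. In 697 0 to 2 were called with a sample left out, beside 25 to 71 over all genes. It was 0 without *SOX11* siRNA replicate 1 or 2 or control replicate 2, and 0 with the replicate block (29 over all genes). These alternatives were added after the data were seen. Over these genes the median log2 fold change came to 0.08 (REH), -0.04 (697) and 0.07 (RCH-ACV).

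The proximal kinases, co-receptor and adaptors had 3 of 15 called in REH, all higher. They were *CD38* (log2 fold change 0.29), *PIK3CD*, the catalytic subunit of the leukocyte PI3 kinase (0.21), and *CD81*, a tetraspanin of the co-receptor complex (0.19). *CD81* was also higher in RCH-ACV (0.34), where the Src family kinase *FYN* fell by 0.36 on the log2 scale, as 2 of 15 were called (4 of 15 without *SOX11* siRNA replicate 3). In 697 1 of 14 was called, the PI3 kinase adaptor *PIK3AP1*, from 433 ± 24.7 to 354 ± 23.1 CPM (log2 fold change -0.29, adjusted p = 0.0437), a call that held in 8 of 16 alternatives. *LYN* and *BLK*, the Src family kinases that start the signal in B cells, did not pass in any line.

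The inhibitory receptors and enzymes had the most calls in RCH-ACV, 7 of 14 (6 higher, 1 lower), with a list median of 0.16. Without *SOX11* siRNA replicate 3 it was 8 of 14 (6 higher, 2 lower), and without any other single sample of that line it was 3 to 6. It was 5 with DESeq2 and 6 with the replicate block, beside 582 and 690 over all genes. The largest changes in the main fit were *PECAM1* (0.88, from 4.52 to 8.21 CPM), *CSK* (0.54), *PTPN22* (0.52) and *PTPN6* (0.46), the last of which encodes the phosphatase SHP-1. The *PTPN22* call held in 10 of 16 alternatives and in 2 of 6 fits that left out a sample. *CSK*, the kinase that keeps Src family kinases inactive, was called higher in each line. It rose from 143 ± 8.39 to 164 ± 10.8 CPM in REH (log2 fold change 0.21, adjusted p = 0.0166), from 94.7 ± 6.03 to 125 ± 5.91 CPM in 697 (0.40, adjusted p = 0.0407) and from 40.1 ± 1.69 to 57.8 ± 5.88 CPM in RCH-ACV (adjusted p = 0.000474), and its difference between lines did not pass (adjusted p = 0.271). Its call held in all 16 alternatives in RCH-ACV, in 11 of 16 in REH and in 10 of 16 in 697. In REH and 697 it held in 2 of 6 fits that left out a sample (adjusted p up to 0.169 and 0.259), and in 697 it was lost with the replicate block (adjusted p = 0.175). *PTPN6* rose in REH (0.30, adjusted p = 0.0336, held in 10 of 16 alternatives) and RCH-ACV (adjusted p = 0.000317), and was 0.26 in 697, where it did not pass (adjusted p = 0.217). *INPP5D*, the lipid phosphatase SHIP-1, was the third of 3 called in REH (0.32, of 15 tested), and *CSK* was the only call of 15 in 697.

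Genes downstream of PLCG2 had 3 of 16 called in REH, all higher. They were *STIM1*, the calcium sensor of the endoplasmic reticulum (0.35), the inositol trisphosphate receptor *ITPR2* (0.32) and protein kinase C beta, *PRKCB* (0.21). The *ITPR2* call held in 10 of 16 alternatives and in 2 of 6 with a sample left out. None of 15 was called in 697. In RCH-ACV 6 of 16 were called (5 higher, 1 lower), among them *STIM1* (0.40), *NFATC2* (0.36) and the NF-kappaB inhibitor *NFKBIA*, which fell by 0.27 on the log2 scale. Without *SOX11* siRNA replicate 3 it was 7 of 16, and without any other single sample of that line it was 2 to 4. It was 2 with DESeq2 and 2 with the replicate block, beside 582 and 690 over all genes. The *NFATC2* call held in 11 of 16 alternatives and in 3 of 6 with a sample left out. The list had a median of 0.07 (REH), 0.004 (697) and 0.13 (RCH-ACV).

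The transcription factors had 4 of 14 called in REH (3 higher, 1 lower) and 1 of 14, lower, in each of the other lines. Without *SOX11* siRNA replicate 3, 8 of 14 were called in RCH-ACV (3 higher, 5 lower). *EBF1*, an activator of *CD79A*, *VPREB1* and *IGLL1*, fell in REH (from 356 ± 6.01 to 325 ± 11.0 CPM, log2 fold change -0.13, adjusted p = 0.0294) and in 697 (from 304 ± 22.7 to 240 ± 8.39 CPM, -0.34, adjusted p = 0.0311). The *EBF1* call held in 8 of 16 alternatives in REH and in 11 of 16 in 697. With a sample left out it held in 1 of 6 fits in REH and in 2 of 6 in 697. It was lost in both with the replicate block (adjusted p = 0.0789 and 0.0732). In RCH-ACV it was -0.17 and did not pass (adjusted p = 0.0570). *CD79A* was called higher in REH, in 2 of 6 fits with a sample left out, and a link between it and *EBF1* was not tested. *IRF4*, which lowers surrogate light chain expression in normal pre-B cells, rose in REH (0.41, adjusted p = 1.67e-06), as did *BACH2* (0.24) and *FOXO1* (0.14), whose call held in 5 of 16 alternatives and in 0 of 6 with a sample left out. *IKZF1* fell in RCH-ACV by 0.31 on the log2 scale (adjusted p = 0.000508). Of these, *IRF4* (adjusted p = 0.00134) and *IKZF1* (adjusted p = 0.0126) differed between lines, and *EBF1* did not pass that test (adjusted p = 0.443).

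**Figure D5:**
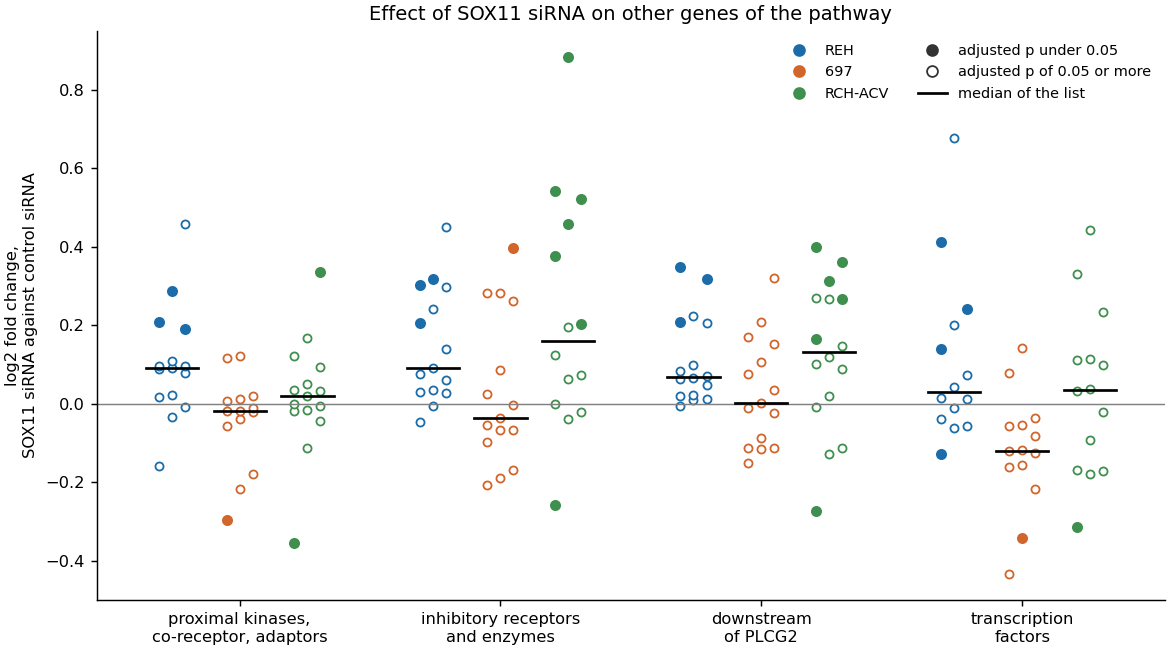
Log2 fold change of *SOX11* siRNA against control siRNA (vertical axis) for the tested genes of the 4 pathway lists (horizontal axis), by line in colour, with filled points for genes that passed the test and a black bar at the median of each list. Medians lie at 0.09, -0.04 and 0.16 for the inhibitory list in REH, 697 and RCH-ACV, and at -0.12 for transcription factors in 697.

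The genes most like the called members across the 18 samples, after the mean of each line was removed, were named by Pearson's r of log2(CPM + 0.5) among 13344 genes, as a description. For *VPREB3* they were *MYBPH* (r = 0.91) and *RGMA* (r = 0.86), which had log2 fold changes of -0.86 and -0.84 in 697. For *CD79A* they were *MAST3* and *PCYT2* (r = 0.94 for both), with 0.43 and 0.26 in RCH-ACV. For *PLCG2* they were *UBE4A* (r = 0.91) and *HASPIN* (r = 0.88), with 0.10 and 0.16 in REH. The samples share their siRNA groups, so these values reflect the same groups of samples.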

How the data were processed

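RNA-seq was performed on 18 samples (stranded TruSeq mRNA libraries). The authors trimmed the reads, mapped these with STAR 2.5.3a on hg19, discarded reads aligning to more than 2 locations and counted with HOMER. They deposited raw counts per RefSeq transcript, without normalization, in 1 table per line, with 0 columns of other samples. The annotation version and the strand setting are not given in the sources used here. The study describes the replicates as independent biological ones.

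Transcripts were matched to symbols (98% of transcripts, 99% of counts), and per gene the transcript with the most counts in all samples together was kept (26941 genes). The 9 members, 4 pathway lists and the marker lists were chosen with earlier results of these data known. Of each list at most the 4 called genes with the largest absolute log2 fold change are named per line, apart from a few items that are not reported here. Separate fits per line used edgeR 4.0.16 (R 4.3.3), TMM, filterByExpr by group and the two-sided quasi-likelihood F-test, the test the study names, with Benjamini-Hochberg adjustment over all tested genes and a threshold of 0.05. SE was the log2 fold change divided by the root of F. The difference between lines was the siRNA by line interaction over 18 samples, and control levels were compared in 1 fit of the 9 controls. CPM used TMM over the 18 samples. Replicate pairs differed by a chi-square per degree of freedom of 1.3 to 5.18, so no library was repeated. The study's text names no pairing of same-numbered samples, so the main fits used none and a replicate block was run as an alternative. Deviations of same-numbered samples correlated at -0.29 to 0.29, which does not exclude a pairing. Floors and the Poisson and ratio intervals of *VPREB1* in REH cover counting error only, while intervals of fold changes include the spread between samples. Positions and lengths are from GENCODE lifted to hg19, and promoters from RefSeq (GRCh38.p14). The fits were tested on simulated data. Alternatives were library size alone, RLE size factors, DESeq2 1.42.0, edgeR's legacy method, no filter, CPM above 1 in 3 samples, other choices of transcript, a replicate block, 1 fit over the 18 samples and leaving out each sample. Their use for the pathway lists was added after the data were seen. Python 3.11.15, pandas 2.3.3, scipy 1.17.1 and matplotlib 3.10.9 were used for tables and figures.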

Additional observations from a re-analysis of the deposited data

Results flagged for a closer look

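The effect of *SOX11* siRNA differed between the lines for 3 of the 9 genes, by edgeR's quasi-likelihood test of the siRNA by line interaction over the 18 samples. For *VPREB3* the adjusted p was 0.000159, beside fold changes (log2) of -0.06 (REH), -0.64 (697) and 0.01 (RCH-ACV). For *IGLL1* it was 0.0255, with 0.03, -0.34 and 0.10 in the same order. For *CD79A* it was 0.0258, with 0.13, 0.06 and 0.46. By its estimate a single line lay away from the other two each time, 697 for *VPREB3* and *IGLL1* and RCH-ACV for *CD79A*. The *VPREB3* difference passed in all 25 alternatives, that of *CD79A* in 19 of 25 and that of *IGLL1* in 15 of 25. That of *CD79A* did not pass with the replicate block (adjusted p = 0.147), without REH *SOX11* siRNA replicate 3 (0.0501), without RCH-ACV *SOX11* siRNA replicate 1 (0.0853) or 2 (0.180), or without RCH-ACV control replicate 2 (0.113) or 3 (0.0946). That of *IGLL1* did not pass with the replicate block (0.177), with library size alone (0.0517), or without REH *SOX11* siRNA replicate 1, 697 *SOX11* siRNA replicate 2 or 3, 697 control replicate 2 or 3, RCH-ACV *SOX11* siRNA replicate 2 or RCH-ACV control replicate 1 or 2 (adjusted p = 0.0517 to 0.0860). The causes were not tested.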

How the results depend on the processing

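All 9 members were called between control levels of each pair of lines under every alternative run, apart from *IGLL1* between RCH-ACV and REH when 1 sample was left out (8 to 9 members called). Of 1019 member values under alternatives, 974 kept their direction and side of the threshold. The number of members called in REH (2) was 1 with the replicate block and 0 in 1 fit over the 18 samples, and 1 to 2 when a sample was left out. In 697 (1) it was 3 with DESeq2 and 3 in 1 fit over the 18 samples, and 1 to 2 with a sample left out. In RCH-ACV (1) it was 1 to 2 with a sample left out. Of the 3 members whose effect differed between lines, 1 remained with the replicate block (*VPREB3*), and 1 to 3 were called with a sample left out.

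Over all genes, 595 calls in REH became 313 with DESeq2, 242 in 1 fit over the 18 samples and 299 (without control replicate 3) to 521 with a sample left out. It was 331 and 375 without *SOX11* siRNA replicate 1 and 2. The 68 in 697 became 29 with the replicate block (29 of the same genes), 193 in 1 fit over the 18 samples and 25 (without *SOX11* siRNA replicate 1) to 71 with a sample left out. It was 28, 29 and 41 without *SOX11* siRNA replicate 2 and control replicates 2 and 3. The 991 in RCH-ACV became 582 with DESeq2 and 386 to 2518 with a sample left out, the highest without *SOX11* siRNA replicate 3. Each of the other 5 samples, left out, gave 386 to 536. The 102 interaction calls became 45 with the replicate block and 57 to 185 with a sample left out, the lowest without RCH-ACV *SOX11* siRNA replicate 2 and the highest without its replicate 3 (174 without 697 control replicate 1). The replicate block gave 479 calls in REH and 690 in RCH-ACV. Same-numbered samples correlated in their deviations at -0.29 to 0.29, which with 3 samples per group cannot settle whether the numbers pair the samples. The block cost *CD79A* in REH its call (adjusted p = 0.0534). The causes were not tested.

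Direction turned only for values that were not called. *VPREB1* in RCH-ACV was -0.000922 with all transcripts kept apart, -0.000757 with the replicate block and -0.0331 to 0.0433 with a sample left out, which also turned *VPREB3* (-0.0508 to 0.0537), *SYK* (-0.0546 to 0.00372) and *PLCG2* (-0.0977 to 0.0304) in RCH-ACV, and *IGLL1* (-0.0248 to 0.0693) and *BTK* (-0.0287 to 0.0155) in REH. The *IGLL1* interaction was also lost with library size alone (adjusted p = 0.0517), and that scaling shifted the median of all genes between 697 and REH from -0.02 to -0.15 on the log2 scale. *VPREB1* in REH is limited by depth, at 2 counts over 6 samples.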
